A study of Mus musculus with 9 samples.

Results

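The nuclear genes for the subunits of the oxidative phosphorylation complexes were followed across chondrocytes on stiff ECM, on soft ECM and in normal culture. Members were taken by gene symbol: Ndufa, Ndufb, Ndufc, Ndufs or Ndufv followed by a digit, Sdha to Sdhd, Uqcr, Cox4 to Cox8, and Atp5. Each gene was represented by its brightest probe over the 9 samples, provided that probe was above 0 in every sample. This gave 73 genes of the 76 with a probe in the table, out of 18295 genes with a tested probe, and comprised 32 in complex I, 4 in complex II, 7 in complex III, 17 in complex IV and 13 in complex V.

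Complexes I to IV form the respiratory chain of the inner mitochondrial membrane. Complexes I (NADH dehydrogenase) and II (succinate dehydrogenase) pass electrons through ubiquinone to complex III (the cytochrome bc1 complex), and cytochrome c carries them on to complex IV (cytochrome c oxidase), which reduces oxygen. Complexes I, III and IV pump protons, and complex V (ATP synthase) uses the gradient to make ATP. Cartilage has no vessels, and its chondrocytes are known for relying largely on glycolysis, whereas skeletal and heart muscle are rich in mitochondria and use tissue-specific isoforms of several complex IV subunits.

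Stiff ECM and soft ECM were polyacrylamide gels coated with type I collagen, of 100 kPa and 500 Pa, and the 9 samples comprised 3 stiff ECM, 3 soft ECM and 3 normal samples. All held RNA of primary knee articular chondrocytes, released by collagenase from the cartilage of newborn Kunming mice and grown in monolayer. The labels give 24 h for all 3 groups, while a figure legend of the study gives a later time for such cultures, and no source used here gives what the normal samples were grown on. The design text calls the samples biological replicates, but whether these were separate animals or cultures is nowhere stated. The spread behind each p-value is that of these samples and may be technical.

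The values were normalized single-colour array intensities, and differences are given as log2 fold changes of a probe. The median intensity of all probes was 166 to 175 in stiff ECM samples, 137 to 150 in soft ECM samples and 124 to 179 in normal samples, and results after centring on it are given beside the counts. Cartilage markers were bright only in part. Col2a1, the main cartilage collagen, averaged 3889 on stiff ECM, 3612 on soft ECM and 9673 in normal samples. The cartilage transcription factor Sox9 averaged 656, 661 and 724 in the same order, and the probe of the cartilage protein Matn1 lay between 3.10 and 10.7 in all samples. The cartilage markers Matn3, Col9a2, Col9a3, Col11a2, Cnmd and Snorc were dim too, with group averages from 28.2 to 237. These lie below the background gauge of 331 given below. Skeletal muscle transcripts were measured along with those of cartilage. The myosin light chain Myl1 lay at 60379 to 70053, at the top of the scale. Myoglobin (Mb) averaged 18874 on stiff ECM, 32701 on soft ECM and 38321 in normal samples. All 25 genes of a skeletal muscle marker list were above 0, but not all were bright. That count says nothing of level, since 24942 of 26423 probes were above 0 in every sample. In such bulk RNA, fewer cells of a type and less RNA per cell cannot be told apart.

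The subunit genes were bright. Of the 73 members, 55 lay in the brightest of 10 classes of equal size into which all 24942 tested probes were divided. Above 331 lay 63 members. This value was the 95th percentile of 451 olfactory receptor genes, which are mostly silent outside sensory neurons and served as an approximate gauge of background. The brightest was Atp5g3, a gene for the c-ring of ATP synthase, at 45301 to 57606 over the 9 samples. The 10 members within the olfactory receptor range were Ndufc2, Ndufv2, Uqcrh-ps1, Cox6c, Cox7b, Cox7b2, Cox8c, Atp5c1, Atp5o and Atp5pb. Several of these belong to every respiring cell, such as the core subunit Ndufv2, so a low value here need not mean little message. Uqcrh-ps1 is a pseudogene that the symbol rule takes in.

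On stiff ECM against soft ECM, the only members that passed the test were the muscle-type complex IV isoforms Cox6a2 and Cox8b, both lower on stiff ECM. Across all probes 0.417% were called lower and 1.35% higher (limma, Benjamini-Hochberg adjusted p under 0.05), and among the members 2 of 73 were lower and 0 higher. At an unadjusted p under 0.05 the members counted 26 lower and 2 higher, against 4.12% and 17.5% of all probes. The member differences were mostly small and in one direction. The log2 fold change was below 0 in 55 of 73 members, against 29.4% of all probes, and its median was -0.19, against 0.18 over all probes. In 33 members every stiff ECM sample lay below every soft ECM sample, and in 6 every one lay above, against 6.39% and 31.7% of all probes.

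The median fold change of all probes was lower among bright probes, so the members were also set beside probes of like intensity. Within the brightest class the 55 members had a median of -0.24, while all 2495 probes there had a median of -0.03. No overlap with lower values on stiff ECM was found for 56.4% of these members and for 16.5% of all probes of the class. The 10 dim members, all in the 6 dimmest classes, had a median of 0.16, while the medians of all probes in those classes ran from 0.22 to 0.51. Scaling mattered for the calls but not for the sign of the members' median. The median of all probes became 0.00 after quantile normalization, 0.01 after loess normalization and -0.06 after centring on the sample median, and that of the members -0.19, -0.18 and -0.44. The calls between the gels, 2 lower and 0 higher, became 8 and 1 after quantile normalization, 4 and 1 after loess normalization, and 22 and 0 after centring. For these and later counts under other settings the share of all probes called is not given. Such counts show how the calls depend on the setting and nothing particular to the members. Leaving out single samples gave 0 lower without stiff replicate 2, 1 lower without soft replicate 1 and 4 lower without normal replicate 1.

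**Figure D1:**
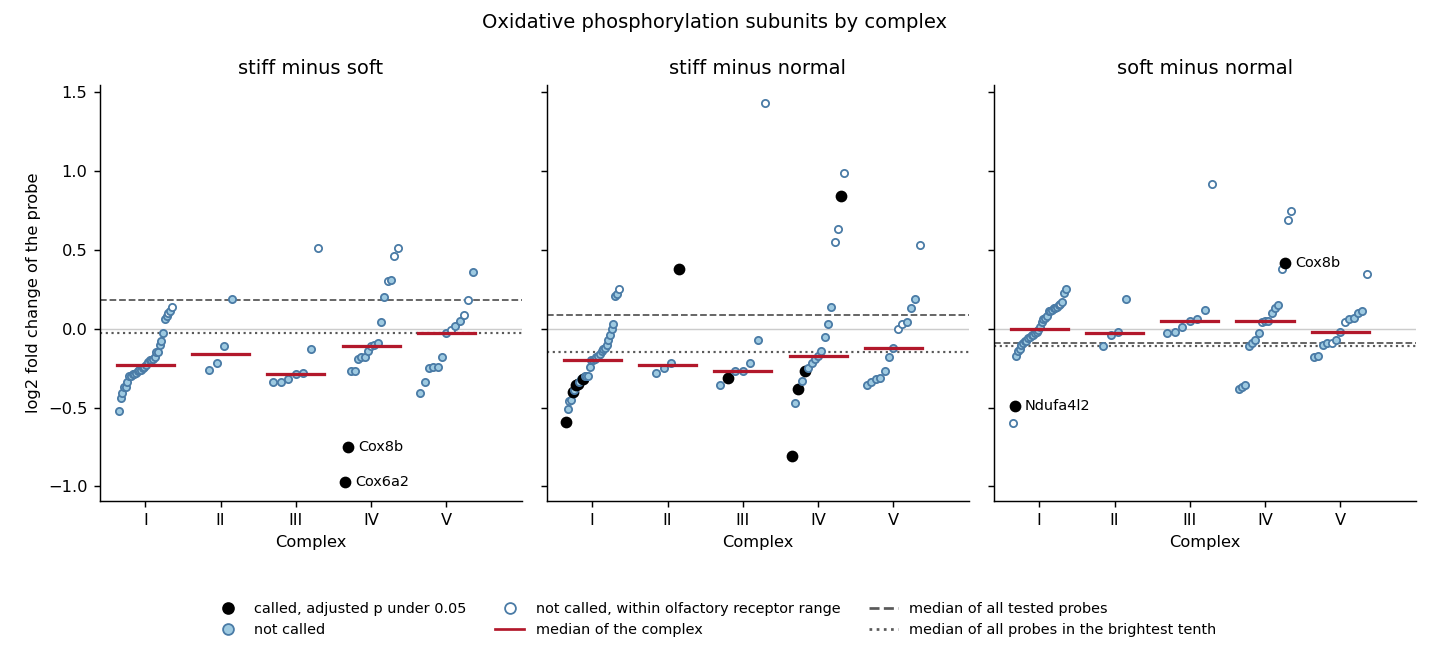
Log2 fold change of each subunit gene (1 point a gene) by complex in the 3 comparisons, with the median of each complex in red and dashed and dotted lines at the medians of all tested probes and of all probes in the brightest class. In the stiff minus soft panel the complex medians lie between -0.29 and -0.03, below the 0.18 of all tested probes, and the black points Cox8b and Cox6a2 lie lowest.

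**Figure D2:**
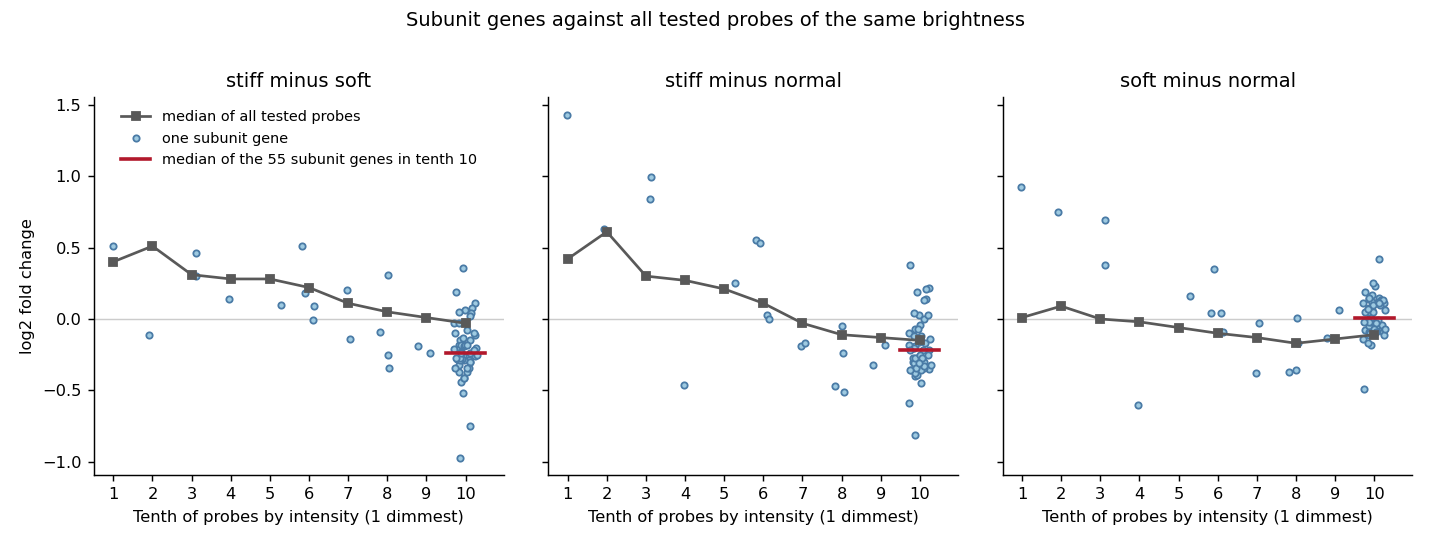
Log2 fold change of the subunit genes (points) against brightness class, from 1 to 10 by mean log2 intensity, with the median of all probes in each class as a grey line. The 55 members in class 10 have medians of -0.24, -0.22 and 0.01 in the 3 panels, and the grey line ends there at -0.03, -0.15 and -0.11.

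The level of the whole set was low in all 3 stiff ECM samples. Taken as the median over members of log2 intensity minus each gene's own mean, it was -0.07, -0.11 and -0.14 in stiff ECM samples, 0.12, 0.00 and 0.05 in soft ECM samples, and -0.01, -0.04 and 0.20 in normal samples. The stiff ECM samples lay below all the others. The third normal sample was the highest of all 9, and its median over all tested probes, 0.23, was also the highest. The complexes followed the same order to different degrees. The stiff ECM samples of complex I (-0.08, -0.18 and -0.17), complex III (-0.08, -0.08 and -0.29) and complex IV (-0.06, -0.09 and -0.10) lay below their soft ECM samples, of which the lowest were 0.00, 0.01 and 0.00. For complexes II and V the stiff and soft ECM samples overlapped. All probes of the brightest class gave 0.02, -0.05 and -0.13 in stiff ECM samples and 0.03, -0.10 and -0.03 in soft ECM samples. The 55 members of that class gave -0.08, -0.13 and -0.20, and 0.13, 0.01 and 0.05. Stiff replicate 3 was the lowest of the 9 samples for both, so part of its low level was shared by bright probes in general.

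**Figure D3:**
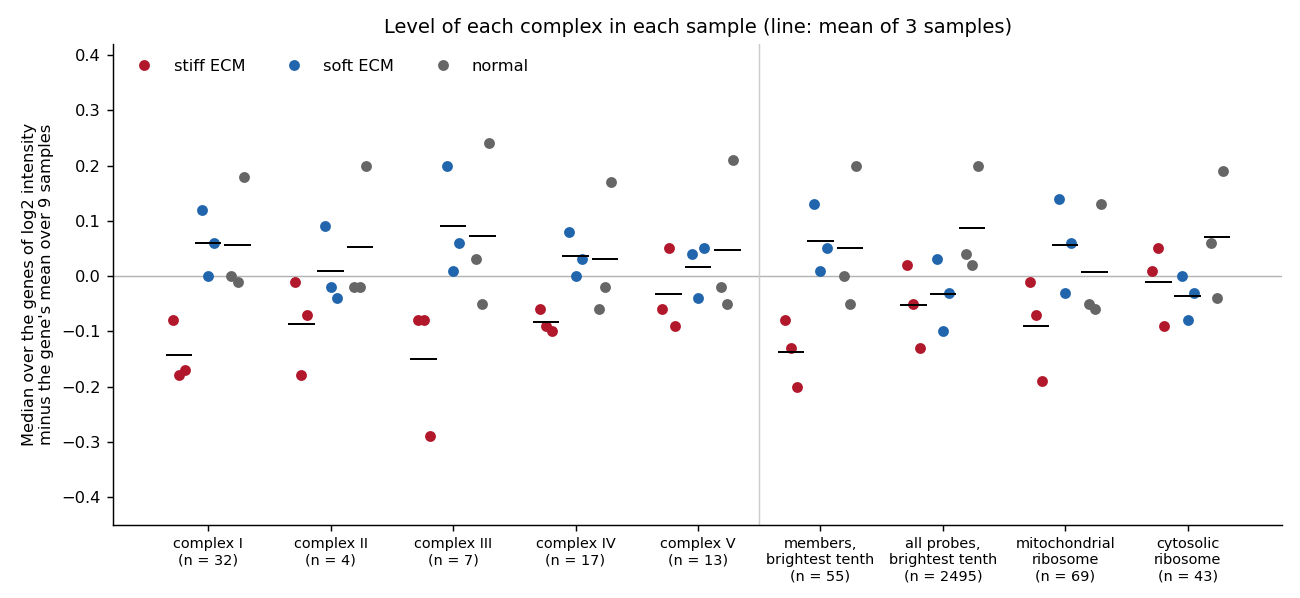
Level of each complex in each sample, as the median over its genes of log2 intensity minus the gene's mean over the 9 samples, with comparison groups on the right and group means as lines. The stiff ECM points of complexes I, III and IV lie below the soft ECM points, and the points of the cytosolic ribosome overlap.

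Cox6a2 encodes the heart and skeletal muscle isoform of a small complex IV subunit, which in other tissues is replaced by Cox6a1. Its intensity was 4234, 3890 and 3756 on stiff ECM, 8266, 7503 and 7441 on soft ECM, and 5442, 7482 and 8231 in normal samples. The stiff ECM samples lay below all 6 others, at 0.51 of the soft ECM level (log2 fold change -0.97 ± 0.14 SE, limma adjusted p = 0.014). Without stiff replicate 2 or soft replicate 1 the adjusted p was 0.10 and 0.055. A dimmer second probe for Cox6a2 lay between 251 and 423 with overlapping groups (log2 fold change -0.12 ± 0.17), and with the mean of both probes the adjusted p was 0.078.

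Cox8b is the muscle isoform of the smallest complex IV subunit in the mouse, also found in brown fat, and Cox8a is its partner in other tissues. Cox8b had 3230, 3076 and 2927 on stiff ECM, 5197, 4708 and 5596 on soft ECM, and 3671, 3680 and 4242 in normal samples. The 3 groups did not overlap, with soft ECM highest and stiff ECM lowest. It was lower on stiff than on soft ECM by 0.75 ± 0.10 on the log2 scale (log2 fold change -0.75, adjusted p = 0.012), and without stiff replicate 2 the adjusted p was 0.098. Ucp1, the defining gene of brown fat, was near 0 in every sample, between -6.20 and 4.90.

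The other isoforms moved differently. Cox7a1, the muscle isoform of the third such subunit, had 1047, 1012 and 826 on stiff ECM, 673, 879 and 780 on soft ECM, and 1091, 879 and 1016 in normal samples. Its groups overlapped and it was not called (log2 fold change 0.31 ± 0.14, stiff minus soft, adjusted p = 0.23). The widely expressed partners gave small differences in stiff minus soft, with log2 fold changes of -0.27 for Cox6a1, 0.04 for Cox8a and -0.27 for Cox7a2. Cox4i2, the isoform known from lung and from low oxygen, was dim, at 358 to 429 on stiff ECM, 316 to 351 on soft ECM and 394 to 479 in normal samples.

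The ratio of a restricted isoform to its partner within a sample is free of any single factor by which the sample was scaled. Its difference between groups was given an exact permutation test. With 3 samples against 3 the smallest two-sided p is 0.10, which becomes 0.23 after adjustment over the 7 pairs and 3 comparisons (21 in all), so no pair could pass. Between stiff and soft ECM the log2 ratio differed by -0.69 for Cox6a2 to Cox6a1 and by -0.79 for Cox8b to Cox8a (stiff minus soft, exact p = 0.10 each). It differed by 0.58 for Cox7a1 to Cox7a2 and by 0.38 for Cox4i2 to Cox4i1 in the opposite direction (exact p = 0.10 each). In these 4 pairs the 3 stiff and 3 soft ECM samples did not overlap. All ratios used the brightest probe of each gene, and 2 of them hang on that choice. In stiff minus soft a dimmer Cox7a2 probe gave 0.81, against -0.27 for the probe used. The dimmer Cox6a2 probe gave -0.12, against -0.97. Ratios with these dimmer probes were not computed, so the direction of those 2 pairs is not settled. The 3 testis-type genes Cox6b2, Cox7b2 and Cox8c were not called between the gels, and the ratios of Cox6b2 and Cox7b2 to their partners overlapped.

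**Figure D4:**
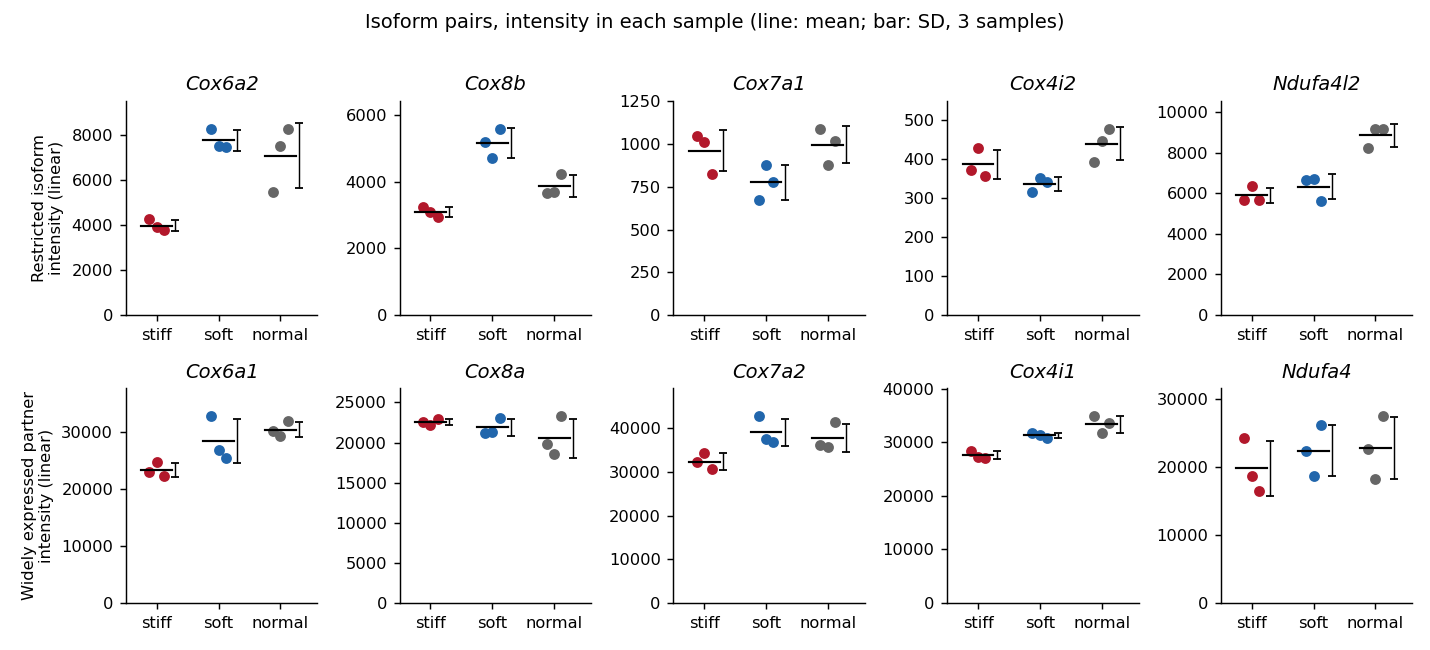
Intensity in each sample of restricted isoforms (top) and their widely expressed partners (bottom), with stiff ECM, soft ECM and normal samples from left to right on linear axes from 0. The stiff ECM points of Cox6a2 and Cox8b lie below all soft ECM and normal points, while those of Cox7a1 and Cox8a overlap the soft ECM points.

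Promoters are shown for the called Cox8b and its partner Cox8a, and for Cox6a1 and Cox7a1 of the other pairs. Each is the 250 bases before the gene's start in RefSeq (GRCm38.p6), read along the gene, with capitals marking matches to the motifs of NRF1 (the palindromic consensus), GABPA (CCGGAAG), ERRA (AAGGTCA), YY1 (AAGATGG) or the muscle E-box (CAGCTG) on either strand.
Cox8b, chr7:140900447-140900696, minus strand: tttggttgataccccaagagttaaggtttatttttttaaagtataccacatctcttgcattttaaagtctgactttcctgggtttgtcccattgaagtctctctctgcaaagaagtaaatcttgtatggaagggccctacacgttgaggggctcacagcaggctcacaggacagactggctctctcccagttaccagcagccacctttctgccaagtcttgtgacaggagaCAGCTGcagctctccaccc
Cox8a, chr19:7217617-7217866, minus strand: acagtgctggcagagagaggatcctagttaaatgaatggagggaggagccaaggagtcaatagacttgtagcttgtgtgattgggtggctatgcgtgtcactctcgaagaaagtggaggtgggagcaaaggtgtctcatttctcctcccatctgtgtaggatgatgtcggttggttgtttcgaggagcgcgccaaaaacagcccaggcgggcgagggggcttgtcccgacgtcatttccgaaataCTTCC
Cox6a1, chr5:115348959-115349208, minus strand: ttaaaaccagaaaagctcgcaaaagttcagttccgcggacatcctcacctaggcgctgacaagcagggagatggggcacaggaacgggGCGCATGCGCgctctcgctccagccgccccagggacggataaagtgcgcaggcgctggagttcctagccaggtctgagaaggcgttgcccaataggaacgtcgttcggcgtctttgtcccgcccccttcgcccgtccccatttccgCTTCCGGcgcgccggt
Cox7a1, chr7:30183921-30184170, plus strand: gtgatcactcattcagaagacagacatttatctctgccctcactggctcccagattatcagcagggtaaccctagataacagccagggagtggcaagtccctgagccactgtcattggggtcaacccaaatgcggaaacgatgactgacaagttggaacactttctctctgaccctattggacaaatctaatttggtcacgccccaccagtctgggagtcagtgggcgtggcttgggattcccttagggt

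The Cox8b window held a muscle E-box starting 19 bases before the start, and another lay 16 bases after it. NRF1 and GABPA are activators of many genes for respiratory chain subunits, and the Cox6a1 window held a match to each, 162 and 16 bases before the start. In Cox8a the last capitals are the first bases of a GABPA match that runs past the start. The windows of Cox7a1 and of its partner Cox7a2 held none of the 5 motifs, and a window for Cox6a2 was not used here. Over the 300 bases from 250 before to 50 after the start, the GABPA motif occurred in 13 of the 59 members with a window (22.0%) and in 9.93% of 27025 genes. The NRF1 motif occurred in 8.47% and 1.07%, ERRA in 10.2% and 5.38%, YY1 in 11.9% and 7.28%, and the muscle E-box in 10.2% and 18.3%. A match is a description of letters and not a bound site.

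Skeletal muscle markers moved in the same direction as Cox6a2 and Cox8b between the gels. The summed intensity of the 25 markers was 212794 to 239171 on stiff ECM, 294482 to 325188 on soft ECM and 309923 to 356999 in normal samples. Of the 25, 5 were lower and 0 higher on stiff ECM (median log2 fold change -0.48), among them myoglobin (Mb, -0.80, adjusted p = 0.012) and the slow troponin Tnni1 (-0.75, adjusted p = 0.012). The giant sarcomere proteins Ttn and Neb gave 0.03 and 0.20 and were not called, and Myl1, at the top of the intensity scale, cannot show a difference. The part of muscle RNA in the differences of Cox6a2, Cox8b and the other subunits was not tested.

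Complex I had no called member between the gels in limma. At an unadjusted p under 0.05 it had 14 lower and 0 higher, against 4.12% and 17.5% of all probes. The methods' t-test called 1 of all 73 members after adjustment, Cox6a2 of complex IV. Of the 32 members of complex I 27 had a log2 fold change below 0, with a median of -0.23 and a range of -0.52 to 0.14. Below 0 were 29.4% of all probes and 54.7% of those in the brightest class. Among the 6 core subunits measured, which between them carry the flavin and the iron-sulfur clusters, the lowest was Ndufs8. It had 3548, 3327 and 2501 on stiff ECM, 4172, 3926 and 5283 on soft ECM, and 4331, 3502 and 4414 in normal samples. Its stiff and soft ECM samples did not overlap, and it was not called (-0.52 ± 0.16, adjusted p = 0.11). The other core subunits gave -0.37 for Ndufs7, -0.25 for Ndufs3, -0.20 for Ndufv1, -0.19 for Ndufs1 and 0.10 for the dim Ndufv2 probe. Core and accessory subunits had medians of -0.22 and -0.23.

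Among the accessory subunits of complex I, Ndufa11, a membrane arm subunit, came nearest to a call between the gels. It had 8909, 7128 and 8860 on stiff ECM, 11700, 11103 and 10705 on soft ECM, and 10481, 10975 and 11127 in normal samples. All stiff ECM values lay below all others (stiff minus soft -0.44 ± 0.10, adjusted p = 0.055). Ndufa5 was similar between the gels, at 13499 to 14313 on stiff ECM and 16825 to 20695 on soft ECM (-0.41 ± 0.10, adjusted p = 0.061), with 14511 to 16918 in normal samples. The highest among the bright members of the complex was Ndufa2 at 0.11 (adjusted p = 0.55), with overlapping groups.

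In complex II the membrane anchor gene Sdhd went the other way from its partners. Sdhd had 13379, 14042 and 13565 on stiff ECM, 12778, 12193 and 11035 on soft ECM, and 10683, 9896 and 11042 in normal samples. The stiff ECM samples were the highest, 0.19 ± 0.09 above soft ECM on the log2 scale (adjusted p = 0.24) and 0.38 ± 0.09 above normal (adjusted p = 0.027). The flavoprotein gene Sdha, the iron-sulfur gene Sdhb and the other anchor gene Sdhc gave -0.11, -0.22 and -0.26 between stiff and soft ECM and -0.22, -0.25 and -0.28 between stiff ECM and normal, and none was called. The RefSeq promoter of Sdhd (GRCm38.p6, 250 bases before the start) held a GABPA match, in capitals, 46 bases before the start.
Sdhd, chr9:50603850-50604099, minus strand: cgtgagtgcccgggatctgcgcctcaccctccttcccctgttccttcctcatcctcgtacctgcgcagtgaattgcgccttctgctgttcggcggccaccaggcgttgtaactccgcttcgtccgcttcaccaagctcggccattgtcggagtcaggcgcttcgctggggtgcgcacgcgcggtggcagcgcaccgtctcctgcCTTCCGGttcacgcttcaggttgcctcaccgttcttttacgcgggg

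Complex III covered a narrow range. All 6 of its protein-coding members lay below 0 between stiff and soft ECM, from -0.34 to -0.13, with a median of -0.31. In 5 the groups did not overlap with stiff ECM lower, against 6.39% of all probes and 16.5% of those in the brightest class. The core proteins Uqcrc1 and Uqcrc2 gave -0.28 and -0.32, and the Rieske iron-sulfur protein Uqcrfs1 -0.13. The small subunits Uqcr10 and Uqcr11 were lowest, at -0.34 each. None was called (5 lower and 0 higher at an unadjusted p under 0.05 in limma, against 4.12% and 17.5% of all probes). Uqcrq, a small accessory subunit, had 15803, 16607 and 14983 on stiff ECM, 20193, 18697 and 19112 on soft ECM, and 18473, 19049 and 21396 in normal samples. Its stiff ECM samples lay below all others (stiff minus soft -0.29 ± 0.09, adjusted p = 0.10).

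Other widely expressed genes that the symbol rule counts in complex IV differed little between the gels. The log2 fold changes were -0.18 for Cox4i1, -0.10 for Cox5a, -0.14 for Cox5b, -0.19 for Cox6b1 and -0.18 for Cox7a2l, and none was called. Cox6c, whose probe was dim, gave 0.51 ± 0.18 (adjusted p = 0.14), at 216 to 307 on stiff ECM and 150 to 192 on soft ECM. The median of the 17 members of the complex was -0.11, and that of the 13 above the olfactory receptor range was -0.18.

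ATP synthase, complex V, had a median of -0.03 over 13 members and -0.21 over the 10 above the olfactory receptor range. The genes of its F1 head differed among themselves. Atp5a1, the alpha subunit, had 15804, 16483 and 14370 on stiff ECM, 11774, 11950 and 12516 on soft ECM, and 12719, 12655 and 15785 in normal samples. The stiff ECM values lay above all soft ECM values but not above all normal values (stiff minus soft 0.36 ± 0.10, adjusted p = 0.092), and the call was made after quantile normalization (adjusted p = 0.02) and after loess normalization (adjusted p = 0.025). The catalytic beta subunit gene Atp5b had 2376, 2302 and 2459 on stiff ECM, 3402, 2433 and 2653 on soft ECM, and 2589, 2559 and 2937 in normal samples, with overlapping gel groups (-0.24 ± 0.13, adjusted p = 0.29). The F1 genes Atp5d (delta) and Atp5e (epsilon) gave -0.18 and -0.24 with overlapping gel groups. Of the 3 genes that encode the same mature c-ring subunit, Atp5g1 and Atp5g2 gave -0.41 and -0.34 and Atp5g3 gave 0.05, and none was called.

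**Figure D5:**
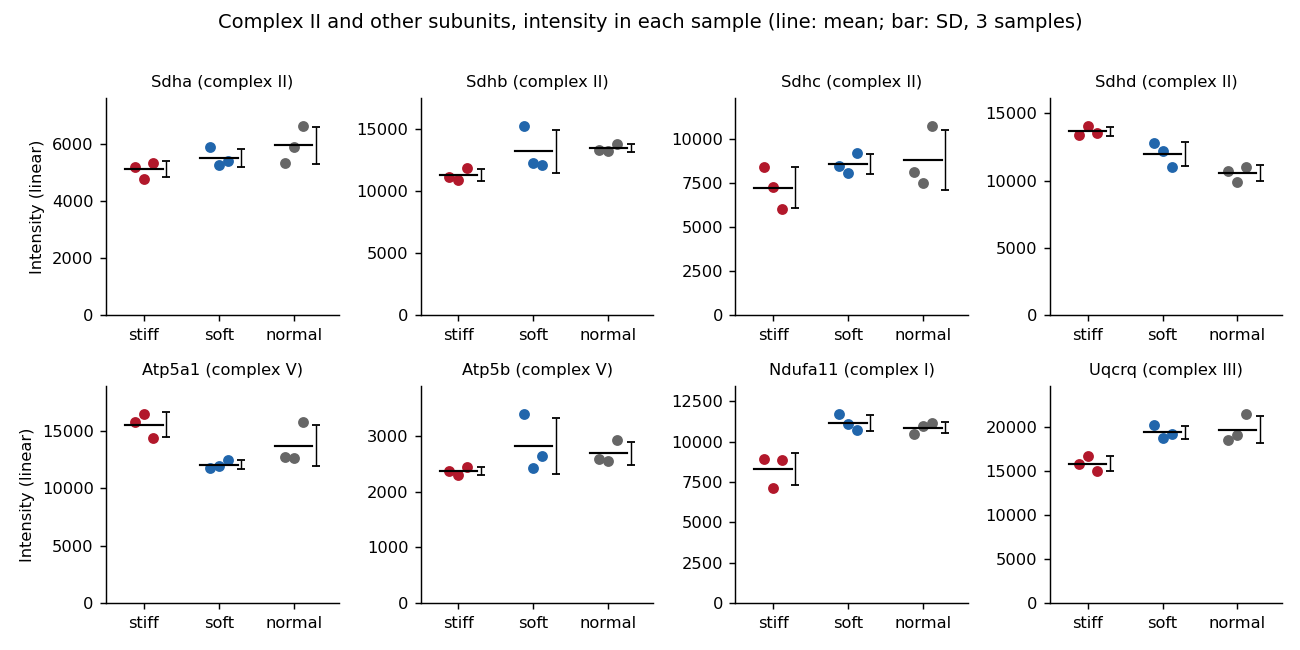
Intensity in each sample of the 4 complex II genes and of Atp5a1, Atp5b, Ndufa11 and Uqcrq, with stiff ECM, soft ECM and normal samples from left to right on linear axes from 0, group means as lines and SD (n = 3) as bars. Sdhd and Atp5a1 are highest on stiff ECM, and Ndufa11 and Uqcrq are lowest there.

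On stiff ECM against normal samples 9 members were lower and 2 higher, against 5.14% and 4.80% of all probes. Bright probes in general were lower in this comparison, so the share of 16.4% lower among the 55 brightest members stands beside 13.1% of all probes in that class. The members' median was -0.20, against 0.09 over all probes, and in the brightest class -0.22, against -0.15. Below 0 were 55 of 73 members, against 42.3% of all probes. The groups did not overlap in 29 members with stiff ECM lower and in 5 with stiff ECM higher, against 14.6% and 19.3% of all probes. Within the brightest class 83.6% of members and 74.9% of all probes lay below 0, and 45.5% and 33.7% did not overlap with stiff ECM lower. The split depended on scaling, with 4 lower and 8 higher after quantile and after loess normalization, and 29 lower and 2 higher after centring on the median. The normal samples also had more cartilage collagen and more muscle marker signal. Of the 25 muscle markers 19 were lower and 0 higher on stiff ECM against normal, with a median log2 fold change of -0.64. The part of cartilage and muscle RNA in the member differences was not tested.

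Ndufa4l2 and Cox6a2 were the members whose lower calls against normal held with each of the 9 samples left out. Ndufa4l2, a homologue of Ndufa4 known as a target of hypoxia-inducible factor, had 5683, 6345 and 5672 on stiff ECM, 6650, 6701 and 5602 on soft ECM, and 8217, 9195 and 9168 in normal samples. Both gels lay below normal without overlap (stiff minus normal -0.59 ± 0.10, adjusted p = 0.0093). The soft ECM difference was -0.49 ± 0.10 (adjusted p = 0.027), and stiff minus soft gave -0.10 ± 0.10 with overlapping groups (adjusted p = 0.59). Ndufa4 itself, which the symbol rule counts in complex I although its protein is now placed in complex IV, gave -0.20 on stiff ECM and -0.02 on soft ECM against normal, with overlapping groups. Cox6a2 gave -0.81 ± 0.14 in stiff minus normal (adjusted p = 0.0092). Its dimmer probe gave 0.14 in the same comparison, and the mean of both probes -0.34 (adjusted p = 0.15).

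The other 7 lower calls on stiff ECM against normal were smaller, with log2 fold changes of -0.40 for Ndufa11, -0.35 for Ndufa13, -0.36 for Ndufa3, -0.32 for Ndufs5, -0.31 for Uqcrq, -0.27 for Cox4i1 and -0.38 for Cox6a1 (adjusted p from 0.029 to 0.048). In each the stiff ECM samples lay below all normal samples. Ndufa13, also known as Grim19, had 26824, 26117 and 28944 on stiff ECM, 35186, 30863 and 32368 on soft ECM, and 35638, 32709 and 36012 in normal samples. These calls leaned on single samples: 9 members were called lower with all samples, and 2 without normal replicate 1, normal replicate 2, stiff replicate 2 or stiff replicate 3. The count was 4 without normal replicate 3, soft replicate 2 or stiff replicate 1, 5 without soft replicate 3 and 9 without soft replicate 1.

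The higher calls on stiff ECM against normal were Sdhd, given above, and Cox8c, a testis-type isoform. Cox8c had 65.5, 63.3 and 74.9 on stiff ECM, 47.1, 48.9 and 52.0 on soft ECM, and 26.9, 44.3 and 45.4 in normal samples. Its groups did not overlap (stiff minus normal 0.84 ± 0.24, adjusted p = 0.048), but 53.0% of olfactory receptor genes were dimmer, so it lay within the background range. Of the 10 dim members 9 were above 0 in this comparison. Both higher calls were lost without normal replicate 2 or any stiff ECM sample, and that of Cox8c also without any soft ECM sample. Atp5c1, the dim gamma subunit gene of ATP synthase, had 324, 363 and 353 on stiff ECM, 300, 284 and 333 on soft ECM, and 187, 255 and 288 in normal samples, and it was not called (stiff minus normal 0.53, adjusted p = 0.064).

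On soft ECM against normal samples the set stayed near 0, with a median of 0.01 over the 73 members, against -0.09 over all probes, and in the brightest class 0.01, against -0.11. Cox8b was higher and Ndufa4l2 lower, against 0.493% higher and 3.21% lower of all probes. Cox8b on soft ECM exceeded normal by 0.42 ± 0.10 on the log2 scale (adjusted p = 0.047). The 25 muscle markers counted 3 lower and 0 higher in this comparison, with a median of -0.23. They were not uniform. In 9 of them every soft ECM sample lay below every normal sample, and in 2 every one lay above, Tnni1 among these (0.30). Over all probes these shares were 18.3% and 5.26%. The part of muscle RNA in the Cox8b difference was not tested. Below 0 were 35 of 73 members, against 61.7% of all probes, and the groups did not overlap in 7 members with soft ECM lower and 5 with soft ECM higher, against 18.3% and 5.26% of all probes. After quantile normalization 0 were lower and 6 higher, after loess normalization 0 and 4, and after centring 0 and 1. The Cox8b call was lost without any 1 sample other than normal replicate 3, and the Ndufa4l2 call without any soft ECM sample, normal replicate 2 or normal replicate 3. By complex the medians were 0.00 for I, -0.03 for II, 0.05 for III, 0.05 for IV and -0.02 for V.

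Probes of the same gene did not always move together. Of the 8 members with several tested probes, the probes pointed in opposite directions in 6 between stiff and soft ECM. The main Cox7a2 probe, at 30590 to 34379 on stiff ECM and 36919 to 42751 on soft ECM, gave -0.27 ± 0.10, and a dimmer one, at 1221 to 1477 on stiff ECM and 771 to 799 on soft ECM, gave 0.81 ± 0.12 (adjusted p = 0.015). For Ndufv3, the brightest of 3 probes gave -0.30 and another 0.23, neither called. For Ndufs4, an accessory subunit of complex I, the probes gave 0.08 and -0.15, for Cox7a2l -0.18 and 0.15, and for Atp5g1 -0.41 and 1.64, none called. The brightest Ndufa11 probe gave -0.44 and its dim second probe, at 44.9 to 138, gave 0.25. The Cox7a2 split, well beyond the standard errors, shows that its 2 probes read different signal, without saying which reads the gene. Opposite signs alone do not show this for the others. The standard error of the dimmer probe was 0.17 for Ndufs4, 0.23 for Cox7a2l and 0.42 for Ndufa11. In each it exceeded the size of that probe's difference. Other splits were wider beside their standard errors. Ndufv3 gave -0.30 ± 0.12 at its brightest probe and 0.23 ± 0.14 at its dimmest. Atp5g1 gave -0.41 ± 0.15 and, at a dim probe of 4.01 to 62.0, 1.64 ± 0.68. Cox6a2 gave -0.97 ± 0.14 and -0.12 ± 0.17, of the same sign but different size. Differences between probes of a gene were not tested.

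No tested probe was found for 3 further genes. Ndufs6 and Atp5mpl lay near 0 in every sample, between -4.22 and 3.10. The Ndufb5 probe was uneven, with -3.79, 2.97 and 3589 on stiff ECM, 6219, -4.07 and 5182 on soft ECM, and 5407, 4878 and 6647 in normal samples, and no group difference was read from it. A further 12 coding genes of the rule in RefSeq were not analysed here, and neither were the 13 mitochondrially encoded subunits.

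Genes that serve the complexes were described beside them. Of 14 complex I assembly factors, 0 were called between stiff and soft ECM (median -0.08), and against normal 2 were lower and 1 higher on stiff ECM, with Ndufaf3 at -0.52 (adjusted p = 0.016), Foxred1 at -0.48 (adjusted p = 0.035) and the dim Ndufaf4 at 0.98 (adjusted p = 0.037). In soft minus normal 0 assembly factors of any complex were called. Of 28 assembly factors of complexes II to V, 0 were called between the gels (median -0.04), and Cox14, needed to assemble complex IV, was lower on stiff ECM against normal (-0.34, adjusted p = 0.047). Cyc1, the cytochrome c1 gene of complex III, which the symbol rule leaves out, gave -0.20 between the gels (adjusted p = 0.21). The muscle and heart ADP/ATP carrier Slc25a4 was lower on stiff ECM against normal (-0.44, adjusted p = 0.016), the only 1 of 9 carriers and porins called there.

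The ribosomes of mitochondria and cytosol were set beside the subunits. The 69 mitochondrial ribosomal protein genes had medians of -0.18 in stiff minus soft, -0.10 in stiff minus normal and 0.06 in soft minus normal. The medians of 43 cytosolic ribosomal protein genes were 0.01, -0.03 and -0.07 in the same comparisons. Of the 69 mitochondrial ribosomal genes, 2 were lower and 0 higher in stiff minus soft, and 8 were lower (11.6%) and 2 higher (2.90%) in stiff minus normal, beside 9 (12.3%) and 2 (2.74%) of the 73 subunit genes. Between stiff and soft ECM 0 cytosolic ones were called (3 lower and 3 higher at an unadjusted p under 0.05 in limma, against 4.12% and 17.5% of all probes). The difference between these lists was not tested.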

How the data were processed

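Cy5-labelled RNA of each sample was hybridised to 2 Phalanx mouse arrays per the study's methods. The deposited values were intensities on a linear scale: the authors took out flagged spots and control probes, median-scaled the arrays with Rosetta Resolver and averaged both arrays per sample. Its version: not given in the sources used here. Of 26423 probes, 1481 (5.6%) at or below 0 in any sample were left out. The log2 intensities of 24942 probes were fitted with limma 3.58.1 in R 4.3.3 (all 9 samples, no covariate, eBayes with an intensity trend, 6 residual degrees of freedom), with Benjamini-Hochberg adjustment across the tested probes of each comparison, at 0.05. The fit was tested on simulated data. Summaries used Python 3.11.15 and figures matplotlib 3.10.9. The number of arrays limits the precision.

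Genes named were the members called in any comparison, the highest and lowest member of each complex, the core subunits, complex II, the F1 and c-ring genes, the isoform pairs, members with no tested probe, members whose probes disagreed, and up to 4 genes of each other list in a comparison. Cox5a, Cox5b, Ndufa2, Atp5o, Atp5pb, Sox9, Matn1, Matn3, Col9a2, Col9a3, Col11a2, Cnmd, Snorc and Myl1 were named after their values were seen. Lists were cell type markers (chondrocyte, skeletal muscle, macrophage, adipocyte, erythroid and endothelial) and genes of mitochondrial pathways. The members and lists were chosen with earlier results of these data known. Alternatives were other normalizations (quantile, loess, median centring), an added offset of 36.05, a floor of 3.209 in place of the filter, the upper 50% of probes, no intensity trend, only the groups compared, sample weights, the methods' t-test (named in their general statistics, whereas the arrays were compared there with an error-weighted model), the mean over a gene's probes, a replicate block, and leaving out each sample. Leaving out samples for the isoform pairs was added after seeing the data.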

Additional observations from a re-analysis of the deposited data

How the results depend on the processing

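The member counts depended on the setting more than the medians did, and the causes were not tested. Counts are given as lower and higher, and with the settings as reported they were 2 and 0 for stiff minus soft, 9 and 2 for stiff minus normal, and 1 and 1 for soft minus normal. In the same order of comparisons they were 8 and 1, 4 and 8, and 0 and 6 after quantile normalization, and 4 and 1, 4 and 8, and 0 and 4 after loess normalization. Median centring gave 22 and 0, 29 and 2, and 0 and 1. Without an intensity trend they were 2 and 0, 2 and 0, and 0 and 0. With only the groups compared they were 4 and 1, 3 and 1, and 0 and 0. Sample weights gave 21 and 4, 1 and 0, and 0 and 0, and the methods' t-test 1 and 0, 0 and 0, and 0 and 0. For stiff minus soft the upper 50% of probes gave 4 lower and the mean over probes 1 lower, and for stiff minus normal the floor gave 1 higher. The share of all probes called under each alternative is not given here, so these counts do not set the members apart from other probes.

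The members' median became -0.44 in stiff minus soft after centring. In stiff minus normal it was -0.08 after quantile normalization, -0.06 after loess normalization and -0.35 after centring, and in soft minus normal 0.12, 0.13 and 0.10. With each sample left out in turn, stiff minus soft gave 0 to 4 lower, 0 to 1 higher and a median of -0.25 to -0.16. Stiff minus normal gave 2 to 9 lower, 0 to 4 higher and a median of -0.22 to -0.12, and soft minus normal 0 to 2 lower, 0 to 1 higher and a median of -0.04 to 0.10.

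The Cox6a2 call between the gels held in 18 of 21 alternatives and that of Cox8b in 19 of 21, and against normal on stiff ECM those of Cox6a2 and Ndufa4l2 held in 19 of 21 each. The other calls against normal held in 4 to 12 alternatives. No named call changed sign. Isoform ratios of small size reversed: Cox4i2 to Cox4i1 in stiff minus normal to -0.10 after quantile and loess normalization, and Cox6b2 to Cox6b1 in stiff minus soft to -0.02 and -0.03. With samples left out, these ran from -0.02 to 0.15 and from -0.08 to 0.26, Ndufa4l2 to Ndufa4 in stiff minus soft from -0.12 to 0.27, and Cox7b2 to Cox7b from -0.15 to 0.66 in stiff minus normal and from -0.56 to 0.20 in soft minus normal.

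Correlations of deviations between samples of the same number ran from -0.220 to 0.133, and between those of different number from -0.229 to 0.188. No pairing by number was seen, but with 3 samples a group a shared animal or batch could be missed. With the replicate number as a block the counts were 2 and 0, 2 and 0, and 0 and 0, and the medians -0.19, -0.20 and 0.01. Signals within the olfactory receptor range, those of 10 members, limit what can be read of those genes.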

Other observations

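Outside the subunit genes, single members of other mitochondrial lists were higher on stiff ECM. Pdk1, the kinase that switches off pyruvate dehydrogenase and is known as a hypoxia-inducible gene, had 1253, 1308 and 1243 on stiff ECM, 758, 845 and 658 on soft ECM, and 887, 797 and 801 in normal samples. The stiff ECM samples lay above all others (stiff minus soft 0.76 ± 0.11, limma adjusted p = 0.016, and stiff minus normal 0.62 ± 0.11, adjusted p = 0.012). It was the only 1 of 11 genes of pyruvate dehydrogenase and its regulators called in any comparison. Among 16 regulators of mitochondrial biogenesis, Yy1, a widely expressed transcription factor, had 1256, 1432 and 1339 on stiff ECM, 644, 826 and 776 on soft ECM, and 817, 816 and 887 in normal samples. It was higher on stiff ECM by 0.85 ± 0.12 against soft ECM (adjusted p = 0.012) and by 0.68 ± 0.12 against normal (adjusted p = 0.0096), and no other regulator was called. On stiff ECM against normal, the citric acid cycle gene Sucla2 was higher by 0.42 ± 0.10 (adjusted p = 0.03, 1 of 13 genes of the cycle), and Hadha of fatty acid oxidation by 0.75 ± 0.17 (adjusted p = 0.024, 1 of 13).

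Markers of cell types other than muscle are given by their calls. Of 14 cartilage markers 0 were called in stiff minus soft, with 3 lower in stiff minus normal and 2 lower in soft minus normal. Of 11 macrophage markers Itgam alone was called, higher on stiff ECM by 0.65 against soft ECM (adjusted p = 0.029) and by 0.58 against normal (adjusted p = 0.019). Of 8 adipocyte markers Adipoq alone was called, at 339 to 412 on stiff ECM, 386 to 585 on soft ECM and 106 to 165 in normal samples. Its log2 fold change against normal was 1.39 on stiff ECM (adjusted p = 0.0059) and 1.67 on soft ECM (adjusted p = 0.005). None of the 4 erythroid or 8 endothelial markers passed the limma test. At an unadjusted p under 0.05, erythroid and endothelial markers each counted 1 higher in stiff minus soft, 2 higher in stiff minus normal and 0 in soft minus normal. The erythroid markers were dim, with summed intensities of 129 to 137 on stiff ECM, 62.1 to 108 on soft ECM and 45.5 to 90.8 in normal samples, and medians of 0.94 in stiff minus soft and 1.18 in stiff minus normal. Their part in the subunit results was not tested.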
